A study of Mus musculus with 28 samples.

Results

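The 4 Id genes, the BMP ligand genes Bmp2, Bmp4, Bmp5 and Bmp7 and the inhibitory SMAD genes Smad6 and Smad7 were followed across 7 Dox-inducible mouse embryonic stem cell (ESC) lines. These 10 genes were chosen by name among 19421 genes in the table, and all 10 passed the filter on low values that left 16837 genes for testing. Each line carries a Dox-inducible cassette for Atoh1 (iAtoh1), Gfi1 (iGfi1), Pou4f3 (iPou4f3), Gfi1 with Atoh1 (iG+A), Gfi1 with Pou4f3 (iG+P), Pou4f3 with Atoh1 (iP+A) or all 3 factors (iGPA), with Atoh1 and Pou4f3 tagged and Gfi1 untagged, always followed by an mVenus reporter and always in the A2loxCre parental line. The Dox libraries come from embryoid bodies (EBs) that received 2 µg/ml doxycycline for 48 h and were sorted for Venus+ cells at day 6, and the No Dox libraries from whole, unsorted EBs of the same line and age that never received it. There are 2 replicates per group, 28 libraries in all, and according to the series text the replicates of a line came from separate clones. Within a line, Dox and sorting cannot be told apart, and in bulk RNA fewer cells of a type and less RNA per cell cannot be told apart either.

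Id proteins are helix-loop-helix proteins without a DNA-binding domain, and they hold E proteins in dimers that cannot bind DNA. Atoh1 is a proneural bHLH factor that binds DNA as a dimer with an E protein, so the Id genes are known as brakes on this class of factor. Id1, Id2 and Id3 are also classical direct targets of BMP signalling, in which ligands such as Bmp2, Bmp4, Bmp5 and Bmp7 bind receptor kinases that phosphorylate Smad1, Smad5 and Smad9. Smad6 and Smad7 are induced by the same pathway and inhibit it. In the embryo BMP signals pattern mesoderm and ectoderm, and in the inner ear they act during sensory organ formation.

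The levels below are normalised counts, obtained from the deposited log2 values, and are compared between libraries for 1 gene at a time. Where 1 set of libraries is said to lie apart from another, the share of all genes that did so was not counted. Differences are log2 fold changes of normalised count + 1 with their standard error (SE), from 1 limma fit of all 28 libraries. A gene is said to have risen or fallen where its Benjamini-Hochberg adjusted p was under 0.05 over all genes tested, and to be past the threshold where the log2 fold change was also at least 1.5 in size. The estimated depth was 30.35 to 48.01 M reads per library. The induced factors followed the labels: with Dox, Atoh1 rose by 7.25 to 8.50 on the log2 scale in the 4 lines that carry it, Gfi1 by 6.51 to 7.42 and Pou4f3 by 7.86 to 9.87 in theirs. Atoh1 also rose in iGfi1 (log2 fold change 2.04) and iG+P (2.70), Gfi1 in iPou4f3 (1.55) and iP+A (1.65), and Pou4f3 in iAtoh1 (2.21) and iG+A (3.11), lines without that transgene. Below, lines with or without a factor are lines with or without its transgene, and adding a factor means adding its transgene.

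Of the 70 effects of Dox on the 10 genes, 41 passed the test and 11 were past the threshold. In iAtoh1 cells 6 of the 10 rose and 1 fell, where 11.4% of all genes tested rose and 11.7% fell, and 2 were past the threshold against 5.40% of all genes. In iGfi1 cells 1 rose and 7 fell (12.4% and 14.1% of all genes), and 0 were past the threshold (4.82% of all genes). These calls rested largely on 1 library. Without iGfi1 Dox replicate 1 the falls of Id2, Id3, Bmp2, Bmp4, Bmp5 and Smad7 and the rise of Bmp7 were all lost, and only the fall of Smad6 was kept. Id4 was the only one of the 10 to pass the test in iPou4f3 cells, where it rose (3.41% of all genes rose and 1.31% fell), and 0 were past the threshold (2.08%).

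Among the lines with more than 1 factor, iG+A had 4 of the 10 genes up and 1 down (21.6% and 19.7% of all genes), with 3 past the threshold (12.3%). The iG+P line had 2 up and 6 down (16.9% of all genes in either direction), with 2 past the threshold (10.5%). The iP+A line had 4 up and 2 down (13.8% and 11.1%), with 1 past the threshold (7.29%). The iGPA line had 4 up and 2 down (23.7% and 22.3%), with 3 past the threshold (14%). In every line but iAtoh1, the count past the threshold changed without at least 1 library of the line. With all 14 untreated libraries as 1 control group it was 3 in iAtoh1, 2 in iG+A and 2 in iGPA, and unchanged elsewhere. Shares of all genes were not counted for that control group. Of the 41 effects, 22 passed whichever library of the line was left out, and each of the other 19 is given below with the libraries it needed.

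**Figure D1:**
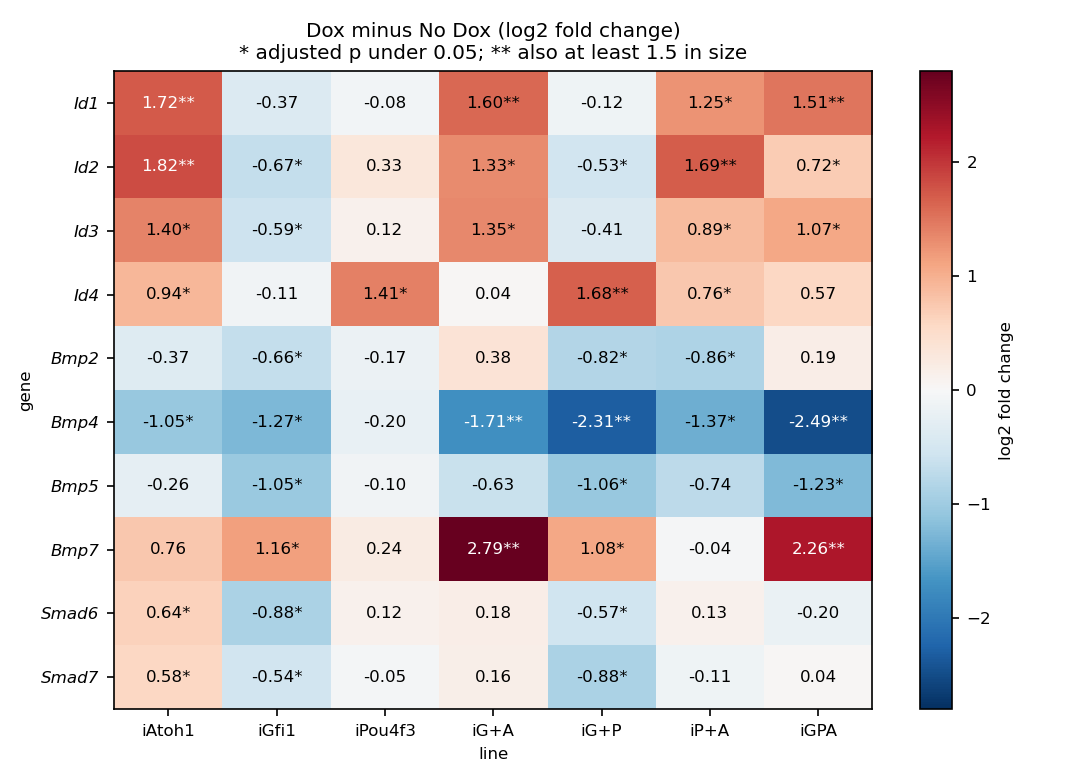
Log2 fold change of each gene (rows) with Dox in each line (columns), as colour and number, with 1 asterisk where the adjusted p was under 0.05 and 2 where the change was also at least 1.5 in size. Id1, Id2 and Id3 are red in the 4 lines with Atoh1, Bmp4 is blue with an asterisk in every line but iPou4f3, and Bmp7 is highest in iG+A (2.79) and iGPA (2.26).

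Id1 lies on chromosome 2 (152561987-152563146, plus strand, NCBIM37, the Ensembl name of mm9). Untreated EBs held 3443 and 3035 normalised counts in iAtoh1, 1489 and 2441 in iG+A, 2970 and 2892 in iP+A and 2628 and 2217 in iGPA, and with Dox the same lines held 10228 and 11038, 6019 and 5568, 7568 and 6397, and 6417 and 7328. Every Dox library of these lines lay above every untreated library of the series, whose highest was 3443. Id1 rose by 1.72 in iAtoh1 (SE 0.16, 3.29-fold, adjusted p = 1.057e-06), by 1.6 in iG+A, by 1.25 in iP+A and by 1.51 in iGPA, with adjusted p at most 1.936e-05. In the 3 lines without Atoh1, Dox libraries held 1888 and 2350 counts in iGfi1, 2099 and 2443 in iPou4f3 and 2882 and 2958 in iG+P, against 2625 and 2832, 2326 and 2478, and 3060 and 3269 without Dox. None of these 3 differences passed the test: −0.37 in iGfi1 (95% interval −0.72 to −0.03, adjusted p = 0.1054), −0.08 in iPou4f3 (−0.43 to 0.26) and −0.12 in iG+P (−0.46 to 0.23).

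Id3 lies on chromosome 4 (135699412-135701670, plus strand) and moved much as Id1 did. Its Dox libraries held 12064 and 11722 counts in iAtoh1, 5220 and 6015 in iG+A, 8178 and 7715 in iP+A and 6850 and 7751 in iGPA, against 4790 and 4251, 1761 and 2759, 4194 and 4356, and 4307 and 2777 without Dox. The groups did not overlap within any of these 4 lines, and Id3 rose by 1.40 (SE 0.19), 1.35, 0.89 and 1.07, with adjusted p of 3.504e-05, 1.606e-05, 0.001651 and 0.0001194. In iGfi1 it fell by 0.59 (adjusted p = 0.02559), from 3553 and 3475 counts to 2098 and 2608. That fall was lost without No Dox replicate 1, No Dox replicate 2 or Dox replicate 1 (adjusted p = 0.1055, 0.09504 and 0.23), and with all 14 untreated libraries as 1 control group. In iPou4f3 and iG+P the differences of 0.12 and −0.41 did not pass (adjusted p = 0.7844 and 0.1017).

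Id2 lies on chromosome 12 (25778666-25780957, minus strand). Its Dox libraries held 13001 and 12151 counts in iAtoh1, 8788 and 5163 in iG+A, 12999 and 11154 in iP+A and 5386 and 5626 in iGPA, against 3485 and 3634, 2547 and 2808, 4201 and 3313, and 3585 and 3136 without Dox. Every Dox library of these lines lay above every untreated library of the series, whose highest was 4201. The rise was 1.82 in iAtoh1 (SE 0.18, 3.53-fold, adjusted p = 1.659e-06), 1.69 in iP+A (3.23-fold, 1.853e-06), 1.33 in iG+A (1.479e-05) and 0.72 in iGPA (0.003612). The rise in iG+A was 0.95 without Dox replicate 1 and 1.72 without Dox replicate 2.

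In the lines with a Gfi1 transgene and no Atoh1 transgene, Id2 fell. In iGfi1 it went from 3371 and 4016 counts to 2015 and 2656 (−0.67, adjusted p = 0.01124), and iG+P held 2388 and 2386 counts with Dox against 3302 and 3581 (−0.53, adjusted p = 0.03211). The fall in iGfi1 was lost without No Dox replicate 2 or Dox replicate 1 (adjusted p = 0.115 and 0.1662). The fall in iG+P was lost without any 1 of its 4 libraries (adjusted p = 0.07504 to 0.1482) and with limma without trend. In iPou4f3, Id2 held 3051 and 3615 counts without Dox and 4136 and 4200 with it, a difference of 0.33 that did not pass (adjusted p = 0.3655).

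The upstream sequence of Id2 is shown beside that of Id4 because the Dox effects on these 2 Id genes differed with different factors. Each is the 250 bases before the gene's start in RefSeq (GRCm38.p6), written 5′ to 3′ on the gene's strand, with matches in either direction to GGCGCC (a GC-rich site of Smad1 and Smad5) and CAGCTG (an E-box, the type of site that bHLH dimers bind) in capitals. RefSeq entries were found for 6 of the 10 genes, and AATCAC (the core of a Gfi1 site) was searched as well.
Id2, chr12:25096093-25096342, minus strand: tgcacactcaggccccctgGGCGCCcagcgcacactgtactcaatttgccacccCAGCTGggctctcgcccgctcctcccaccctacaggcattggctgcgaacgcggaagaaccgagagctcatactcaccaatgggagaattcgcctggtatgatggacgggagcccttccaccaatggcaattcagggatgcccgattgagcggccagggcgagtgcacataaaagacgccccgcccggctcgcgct
Id4, chr13:48260866-48261115, plus strand: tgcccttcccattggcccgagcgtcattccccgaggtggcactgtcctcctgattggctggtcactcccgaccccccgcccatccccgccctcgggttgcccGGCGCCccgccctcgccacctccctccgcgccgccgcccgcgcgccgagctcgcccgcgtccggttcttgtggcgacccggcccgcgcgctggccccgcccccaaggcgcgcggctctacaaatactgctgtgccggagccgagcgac
The Id2 window held GGCGCC at position −231 and CAGCTG at −196, counted from the start, and the Id4 window held GGCGCC at −148 and no CAGCTG. Neither window held AATCAC, and the windows of Id3, Bmp4, Bmp5 and Smad6 held none of the 3. The paper reports Gfi1 binding near several Id genes, from its ChIP-seq of Gfi1 in iGPA cells. A window without AATCAC therefore does not mean that Gfi1 was absent from the gene. Among all 32851 RefSeq windows of this length, 9.59% held GGCGCC, 13% CAGCTG and 9.14% AATCAC. A match is a run of letters and not a measured binding site.

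Id1, Id2 and Id3 had higher Dox effects, as means over 3 pairs of lines, where Atoh1 was among the factors. Over the 3 pairs in which Atoh1 was added to Gfi1, to Pou4f3 or to both, 5 of the 10 genes had a higher Dox effect with Atoh1 and 1 a lower one, where 17.4% and 13.2% of all genes did. The mean difference was 1.64 for Id1 (SE 0.13, 95% interval 1.36 to 1.92, adjusted p = 9.935e-08), 1.54 for Id2 (1.22 to 1.85, 6.934e-07) and 1.39 for Id3 (1.08 to 1.71, 2.4e-06). All 3 single pairs passed for Id1 (1.33 to 1.97) and for Id2 (1.24 to 2.00). For Id3, iG+A minus iGfi1 (1.93, adjusted p = 6.973e-05) and iGPA minus iG+P (1.48, 0.0009113) passed, and iP+A minus iPou4f3 (0.77, 0.1431) did not. In the 8 Dox libraries with an Atoh1 transgene Id1 ran from 5568 to 11038 counts (median 6873), and in the 6 without from 1888 to 2958 (median 2397). The ranges were 5163 to 13001 and 2015 to 4200 for Id2, and 5220 to 12064 and 2098 to 3092 for Id3. Among the Dox libraries, all 3 genes thus had no overlap between lines with and without the Atoh1 transgene, a separation not counted over all genes.

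On adding Gfi1, the differences for Id1 (0.04, 95% interval −0.24 to 0.32) and Id3 (−0.13, −0.45 to 0.18) did not pass, and Id2 had a lower Dox effect with Gfi1 by 0.77 on average (SE 0.15, adjusted p = 0.0005347). The single pairs gave −0.49 for iG+A minus iAtoh1 (adjusted p = 0.222), −0.85 for iG+P minus iPou4f3 (0.0276) and −0.97 for iGPA minus iP+A (0.01312). Adding Pou4f3 moved Id1, Id2 and Id3 by −0.10, −0.20 and −0.20, none of which passed. The comparisons for the 3 factors share lines and are therefore not independent of each other.

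Over the 14 group means, Id1 and Id3 were the most alike of all pairs among the 10 genes (Pearson r = 0.972), followed by Id2 and Id3 (0.913) and Id1 and Id2 (0.901). For Id1, Id3 was also the closest of all 16837 genes tested, ahead of Pcbp4 (0.971) and Polm (0.970). Closest to Id3 after Id1 were Smarcd2 (0.971) and Pcbp4 (0.954), and closest to Id2 were Cog1 (0.972), Rhbdl3 (0.962) and Prrx2 (0.957). These values describe 14 points that share the fit's normalisation and come from 28 libraries.

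**Figure D2:**
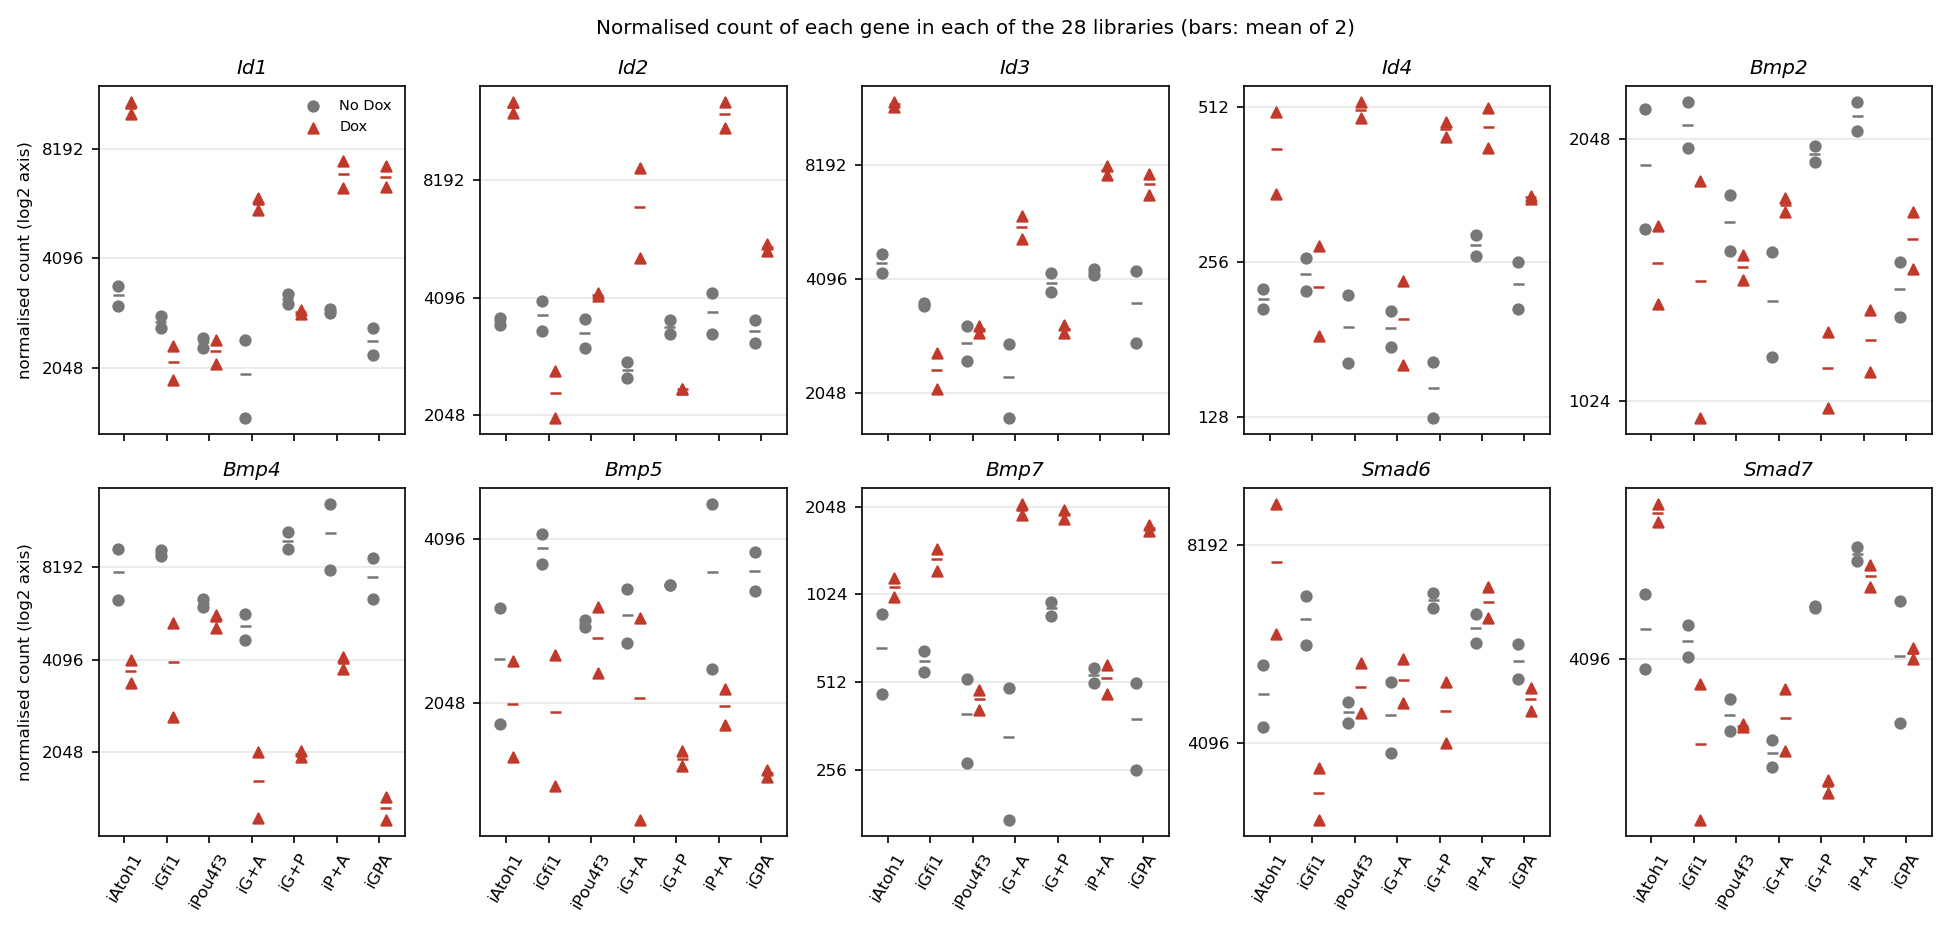
Normalised count of each of the 10 genes (1 panel each, log2 axis) in the 7 lines, with grey circles for the 2 No Dox libraries, red triangles for the 2 Dox libraries and short bars for their means. Id1, Id2 and Id3 lie above every untreated library of the series with Dox in iAtoh1, iG+A, iP+A and iGPA, Id4 is high in iPou4f3 (488 and 524) and iG+P (448 and 480), and Bmp4 is lowest in iGPA (1457 and 1228).

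Id4 lies on chromosome 13 (48356796-48359405, plus strand), where a lincRNA gene on the opposite strand overlaps its start, and reads of such a pair cannot be told apart unless counting used the strand. Dox libraries held 488 and 524 counts in iPou4f3, 448 and 480 in iG+P, 511 and 426 in iP+A and 340 and 345 in iGPA, against 220 and 163, 127 and 164, 289 and 262, and 256 and 207 without Dox. The Dox libraries lay above the untreated ones in each of these 4 lines with Pou4f3. Id4 rose by 1.68 in iG+P (SE 0.23, 3.20-fold, adjusted p = 1.824e-05), by 1.41 in iPou4f3 (adjusted p = 0.0009842) and by 0.76 in iP+A (0.02191), and the 0.57 in iGPA did not pass (0.05201), although it passed with the replicate number as a block (0.0313), with a filter of 50 counts (0.04853) and against 1 pooled control group (0.01085). Untreated iG+P had the lowest mean Id4 of the untreated groups (145 counts), and against the pooled group the rise in iG+P was 1.15, short of the threshold.

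Among the 3 lines without Pou4f3, Id4 rose in iAtoh1, from 207 and 227 counts to 501 and 347 (0.94, adjusted p = 0.006795). It held 184 and 275 counts with Dox in iGfi1 against 225 and 260 without, and 235 and 161 against 205 and 175 in iG+A, 2 lines in which the groups overlapped. The rise in iP+A was lost without No Dox replicate 1, No Dox replicate 2 or Dox replicate 1 (adjusted p = 0.05148, 0.1165 and 0.172), and that in iAtoh1 without No Dox replicate 1 or Dox replicate 1 (0.05126 and 0.1027). With only the groups compared in the fit, the rises in iAtoh1, iPou4f3 and iP+A were lost too (the adjusted p in iPou4f3 was then 0.06565).

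Adding Pou4f3 raised the Dox effect on Id4 by 0.71 on average (SE 0.19, 95% interval 0.32 to 1.11, adjusted p = 0.01918), and Id4 was the only one of the 10 genes for which adding Pou4f3 passed (6.91% of all genes were higher and 4.07% lower). With the replicate block, for which no share of all genes was counted, 2 of the 10 passed, as Bmp4 joined Id4 (−0.71, adjusted p = 0.02682). The count was 2 without iAtoh1 No Dox replicate 2, iG+A Dox replicate 2 or iP+A No Dox replicate 2, and 3 without iGfi1 Dox replicate 1 or iGPA No Dox replicate 2. The largest pair was iG+P minus iGfi1 (1.78, adjusted p = 0.003785), and iP+A minus iAtoh1 gave −0.18 (95% interval −0.87 to 0.51). Adding Atoh1 lowered the Dox effect on Id4 by 0.54 (adjusted p = 0.03759), opposite to Id1, Id2 and Id3, but 13 of 24 libraries left out in turn ended that call (adjusted p up to 0.08121). The pair iG+A minus iAtoh1 gave −0.90 for Id4 (0.06978, and 0.03924 with the block). Of all genes tested, Mitf (r = 0.938), Elfn1 (0.933) and Stk11ip (0.877) were closest to Id4 over the 14 group means.

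Tcf3, Tcf4 and Tcf12 encode the E proteins that Id proteins bind, and their changes stayed under 0.6 on the log2 scale. Tcf4 rose in iAtoh1 (0.54, adjusted p = 0.0001613), iG+A (0.44, 0.0004508), iP+A (0.59, 4.488e-05), iGPA (0.24, 0.02879) and iPou4f3 (0.32, 0.03441) and fell in iGfi1 (−0.41, 0.001654). Tcf12 rose in iAtoh1 (0.42), iG+A (0.24) and iP+A (0.25), and Tcf3 in iG+A (0.35) and iGPA (0.31). No E protein was past the threshold in any line. Adding Atoh1 raised the Dox effect on Tcf4 by 0.46 (adjusted p = 6.508e-05) and on Tcf12 by 0.21 (0.007812), and the 0.21 for Tcf3 did not pass (0.08605). Adding Gfi1 lowered the Dox effect on Tcf4 (−0.27, adjusted p = 0.005208), and no other addition of Gfi1 or Pou4f3 passed for an E protein. Tcf3 lost its rise in iG+A without No Dox replicate 1 or Dox replicate 2 (adjusted p = 0.2538 and 0.3273) and in iGPA without any 1 library (up to 0.1241). Tcf4 lost its rise in iPou4f3 without No Dox replicate 1, No Dox replicate 2 or Dox replicate 1 (up to 0.3767) and in iGPA without replicate 2 of either arm (0.1787 and 0.2213), and Tcf12 lost its rise in iG+A without No Dox replicate 1 (0.06186) and in iP+A without No Dox replicate 2 or either Dox replicate (up to 0.1784). With only the groups compared in the fit, Tcf3 in iG+A, Tcf4 in iPou4f3 and iGPA and Tcf12 in iG+A and iP+A did not pass either. Tcf3 in iG+A and Tcf12 in iP+A were also lost against 1 pooled control group, Tcf3 in iGPA and Tcf4 in iPou4f3 without trend, and Tcf4 in iPou4f3 with 75th percentile scaling.

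Among Bmp2, Bmp4, Bmp5 and Bmp7, Bmp4, which induces mesoderm and ventral fates in the early embryo, had the largest falls. It lies on chromosome 14 (47003195-47010344, minus strand), overlapped on the opposite strand by 2 annotated genes. Untreated EBs held between 4738 and 13177 counts (median 8404 over 14 libraries) and Dox libraries between 1228 and 5707 (median 3040). With Dox the libraries held 1457 and 1228 counts in iGPA against 8766 and 6430, 2061 and 1976 in iG+P against 10644 and 9358, 2052 and 1247 in iG+A against 4738 and 5775, and 4162 and 3825 in iP+A against 13177 and 8043. In each of the 7 lines both Dox libraries lay below both untreated ones, and the share of all genes with such a pattern was not counted.

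Bmp4 fell by 2.49 in iGPA (SE 0.29, 5.61-fold lower, adjusted p = 1.3e-06), by 2.31 in iG+P (4.94-fold lower, 5.234e-06), by 1.71 in iG+A (3.27-fold lower, 0.0001193) and by 1.37 in iP+A (0.001709). It also fell in iGfi1, from 8919 and 9300 counts to 2654 and 5401 (−1.27, adjusted p = 0.003222), and in iAtoh1, from 6390 and 9405 to 3425 and 4074 (−1.05, 0.01224). In iPou4f3 it held 6468 and 6059 counts without Dox and 5707 and 5196 with it (−0.20, 95% interval −0.80 to 0.40). The fall in iGfi1 was lost without Dox replicate 1 (adjusted p = 0.09952), and that in iAtoh1 without No Dox replicate 2 or Dox replicate 1 (0.1295 and 0.09003). With only the groups compared in the fit, the falls in iGfi1 and iAtoh1 did not pass either.

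Over the 3 pairs in which Gfi1 was added, 1 of the 10 genes had a higher and 3 a lower Dox effect with Gfi1, against 17.7% and 16.3% of all genes. With the replicate block 7 of the 10 passed, where Bmp2 (0.38, adjusted p = 0.02665), Bmp5 (−0.61, 0.01624) and Smad7 (−0.36, 0.03797) joined Id2, Bmp4, Bmp7 and Smad6. The shares of all genes are those of the main fit, and none was counted with the block. Bmp4 had the strongest decrease, with a mean difference of −1.29 (SE 0.23, 95% interval −1.78 to −0.80, adjusted p = 0.0002829). The pairs gave −2.10 for iG+P minus iPou4f3 (0.001405), −1.12 for iGPA minus iP+A (0.06087, and 0.02872 with the block) and −0.66 for iG+A minus iAtoh1 (0.3026). The mean differences for adding Pou4f3 (−0.71) and Atoh1 (−0.60) had adjusted p of 0.05761 and 0.06028 and passed with the block (0.02682 and 0.02932) and with 75th percentile scaling (0.04633 and 0.04774), and that for Atoh1 also with quantile scaling (0.03616).

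Bmp5 on chromosome 9 (75623171-75748117, plus strand, with a lincRNA gene overlapping on the opposite strand) paralleled Bmp4 over the 14 group means (r = 0.895) with smaller and less certain changes. It fell in iGPA, from 3880 and 3279 counts to 1540 and 1497 (−1.23, SE 0.35, adjusted p = 0.008151), in iG+P, from 3375 and 3373 to 1563 and 1667 (−1.06, 0.02589), and in iGfi1, from 3679 and 4185 to 1440 and 2502 (−1.05, 0.03527). Differences in the other 4 lines ran from −0.74 in iP+A to −0.10 in iPou4f3 and did not pass, although those in iP+A and iG+A did with the replicate block (0.02178 and 0.03175) and that in iG+A against 1 pooled control group (0.02825), as did, with the block, the pair iG+P minus iPou4f3 (−0.96, 0.03879). The call in iGPA was lost without No Dox replicate 1 (adjusted p = 0.05739), that in iG+P without any 1 library (0.0782 to 0.1055) and that in iGfi1 without No Dox replicate 1, No Dox replicate 2 or Dox replicate 1 (0.08877, 0.1641 and 0.3351), and the fall of Bmp5 in iGfi1 was also lost with limma without trend (0.05476) and with only the groups compared (0.05022). Bmp5 was also the only one of the 10 genes whose Dox effects did not differ detectably among the lines (F test, adjusted p = 0.3106). The other 9 passed that test, as did 51.9% of all genes.

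Bmp2, on chromosome 2 (133377895-133388621, plus strand), moved less. It fell in iP+A, from 2259 and 2092 counts to 1303 and 1106 (−0.86, SE 0.22, adjusted p = 0.007504), in iG+P, from 2009 and 1926 to 1229 and 1005 (−0.82, 0.006522), and in iGfi1, from 1997 and 2256 to 979 and 1832 (−0.66, 0.03096). In iG+A and iGPA the differences were 0.38 and 0.19 and did not pass. The difference between lines was itself past the test for iGPA minus iP+A (1.04, adjusted p = 0.0246), iG+A minus iGfi1 (1.04, 0.01822) and iGPA minus iG+P (1.01, 0.03258), so the Dox effect on Bmp2 was higher where Gfi1 and Atoh1 were together than in those 3 lines. With the block, iG+A minus iAtoh1 (0.74, adjusted p = 0.02596) and iG+P minus iPou4f3 (−0.65, 0.04186) passed as well. The falls in iP+A and iG+P were lost without Dox replicate 2 of the line (adjusted p = 0.07309 and 0.0744), and that in iGfi1 without No Dox replicate 1, No Dox replicate 2 or Dox replicate 1 (0.06834, 0.1712 and 0.534). With 1 pooled control group or with only the groups compared in the fit, the fall of Bmp2 in iGfi1 did not pass either (0.179 and 0.1704).

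Bmp7, a ligand that signals in many epithelia and in the developing kidney and eye, went the other way. It lies on chromosome 2 (172693513-172765822, minus strand). Dox libraries held 1915 and 2097 counts in iG+A, 1686 and 1773 in iGPA, 2001 and 1866 in iG+P and 1234 and 1469 in iGfi1, against 172 and 488, 508 and 256, 968 and 867, and 656 and 554 without Dox. In these 4 lines with Gfi1 all 8 Dox libraries lay above every untreated library of the series, whose highest was 968, a separation not counted over all genes. The other 6 Dox libraries ran from 411 to 1164 counts.

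The rise of Bmp7 was 2.79 in iG+A (SE 0.39, 6.90-fold, adjusted p = 1.998e-05), 2.26 in iGPA (4.79-fold, 0.0001244), 1.16 in iGfi1 (0.03577) and 1.08 in iG+P (0.04091). Untreated iG+A libraries differed widely, and the rise there was 2.03 without No Dox replicate 1 and 3.54 without No Dox replicate 2. With Dox, iG+P (2001 and 1866 counts) held about as much Bmp7 as iG+A (1915 and 2097). Its untreated level was higher (968 and 867 against 172 and 488). Against 1 pooled control group the rise was 1.96 in iG+P and 2.01 in iG+A. The calls in iGfi1 and iG+P were each lost without any 1 of their 4 libraries (adjusted p = 0.08484 to 0.1723 and 0.1035 to 0.1531) and with limma without trend. In iAtoh1 Bmp7 held 875 and 465 counts without Dox and 1164 and 1003 with it (0.76, adjusted p = 0.174, and 1.12 with adjusted p = 0.03771 against 1 pooled control group), and the differences in iPou4f3 and iP+A were 0.24 and −0.04. Adding Gfi1 raised the Dox effect on Bmp7 by 1.72 on average (SE 0.32, 95% interval 1.05 to 2.39, adjusted p = 0.0003825). The pairs with Atoh1 gave 2.30 (iGPA minus iP+A, 0.007196) and 2.03 (iG+A minus iAtoh1, 0.01808), and iG+P minus iPou4f3 gave 0.84 (95% interval −0.33 to 2.00).

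Smad6 on chromosome 9 (63800953-63869866, minus strand) and Smad7 on chromosome 18 (75527183-75555589, plus strand) encode inhibitory SMADs that block the receptors and the SMADs they activate. Both rose in iAtoh1 and fell in iGfi1 and iG+P. Smad6 held 6000 and 9475 counts with Dox in iAtoh1 against 4325 and 5376 without (0.64, SE 0.18, adjusted p = 0.01517), 3119 and 3750 against 5771 and 6860 in iGfi1 (−0.88, 0.001671), and 5059 and 4092 against 6933 and 6562 in iG+P (−0.57, 0.02062). Smad7 held 6534 and 6941 against 3962 and 5112 in iAtoh1 (0.58, adjusted p = 0.02809), 2370 and 3764 against 4124 and 4592 in iGfi1 (−0.54, 0.03511), and 2716 and 2600 against 4873 and 4912 in iG+P (−0.88, 0.0009921). In the other 4 lines neither gene passed, with differences from −0.19 to 0.18.

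Only the fall of Smad6 in iGfi1 and that of Smad7 in iG+P were kept whichever library of the line was left out. Smad6 lost its call in iAtoh1 without No Dox replicate 1 or Dox replicate 2 (adjusted p = 0.1492 and 0.2705) and in iG+P without No Dox replicate 1, No Dox replicate 2 or Dox replicate 2 (0.1074, 0.05882 and 0.1859). Smad7 lost its call in iAtoh1 without No Dox replicate 1, Dox replicate 1 or Dox replicate 2 (0.2455, 0.07782 and 0.1307) and in iGfi1 without No Dox replicate 1, No Dox replicate 2 or Dox replicate 1 (0.0723, 0.1885 and 0.5007). The rises of Smad6 and Smad7 in iAtoh1 were lost with only the groups compared in the fit (0.1695 and 0.07201) and the fall of Smad6 in iG+P with 1 pooled control group (0.2597), while the fall of Smad7 in iGfi1 was lost with that pooled control, with only the groups compared, without trend and with 75th percentile scaling (0.05157 to 0.1466). Adding Atoh1 raised the Dox effect on Smad6 by 0.48 (SE 0.15, adjusted p = 0.01884) and on Smad7 by 0.52 (SE 0.15, 0.01231). Adding Gfi1 lowered it by 0.49 for Smad6 (0.0147), and of the fits listed here the −0.36 for Smad7 passed with the block (adjusted p = 0.03797) but not without it (0.0679). The block also brought in the pairs iG+P minus iPou4f3 for Smad6 (−0.69, adjusted p = 0.02021) and iG+A minus iGfi1 for Smad7 (0.71, 0.02745). With the block, Bmp2 (0.46, adjusted p = 0.01172), Bmp4 (−0.60, 0.02932) and Bmp7 (0.84, 0.02308) passed on adding Atoh1 as well.

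**Figure D3:**
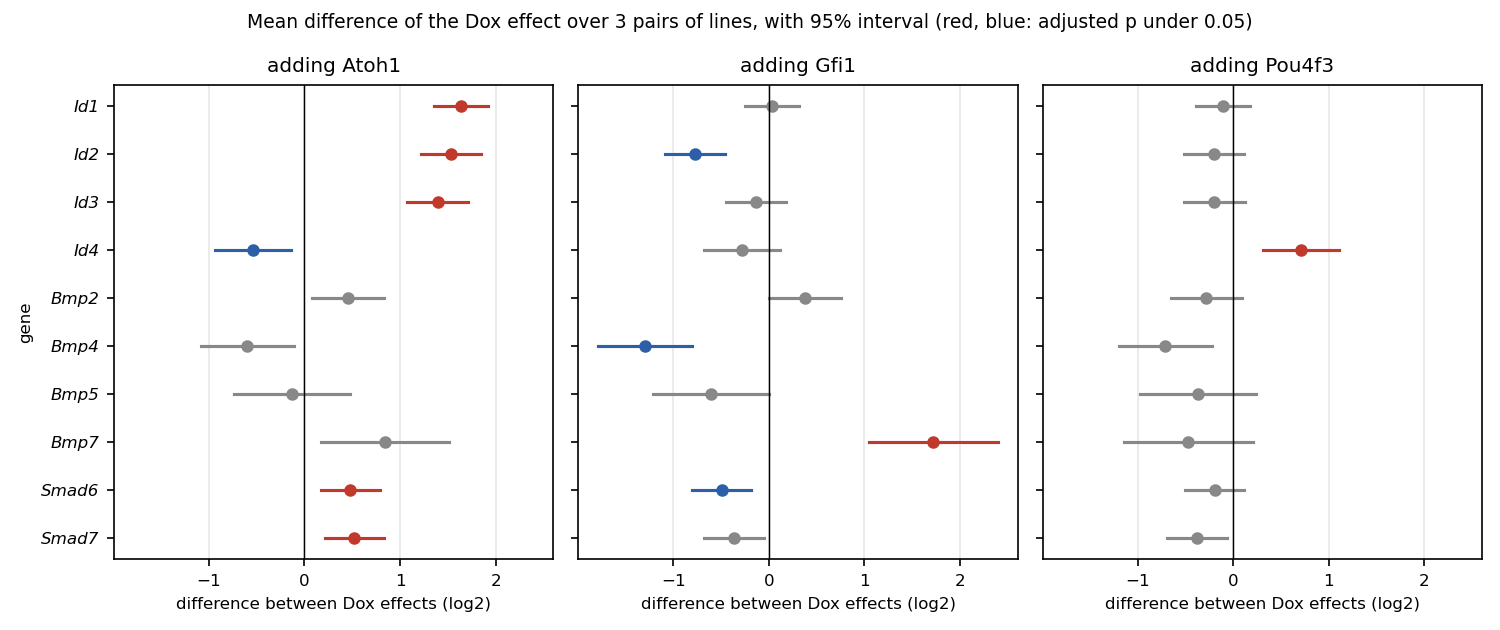
Mean difference of the Dox effect (log2 scale) over the 3 pairs of lines that differ by Atoh1, Gfi1 or Pou4f3, with its 95% interval, in red or blue where the adjusted p was under 0.05 and in grey otherwise. Id1, Id2 and Id3 lie between 1.39 and 1.64 on adding Atoh1, Bmp7 (1.72) and Bmp4 (−1.29) lie farthest from 0 on adding Gfi1, and Id4 (0.71) is the only coloured gene on adding Pou4f3.

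The rest of the pathway was read from lists of other ligands, receptors, SMADs, secreted and intracellular inhibitors, targets and the TGF-beta and Nodal arm, 73 genes in all with the E proteins, of which 69 were tested (Bmp10, Bmp15, Sostdc1 and Inhba fell under the filter). The shares of all genes that rose and fell, against which these counts stand, were 11.4% and 11.7% in iAtoh1, 12.4% and 14.1% in iGfi1, 3.41% and 1.31% in iPou4f3, 21.6% and 19.7% in iG+A, 16.9% in both directions in iG+P, 13.8% and 11.1% in iP+A, and 23.7% and 22.3% in iGPA. Of the 10 receptors and co-receptors, 4 rose and 0 fell in iAtoh1 cells (median 0.59, against −0.01 over all genes), while 0 rose and 6 fell in iGfi1 (median −0.66, against 0.02) and in iG+P (median −0.72, against 0.00). In the other lines 5 receptors rose and 2 fell in iGPA, 2 rose and 2 fell in iG+A, 1 rose and 0 fell in iP+A, and none passed in iPou4f3. The 4 SMADs that carry the signal, Smad1, Smad5, Smad9 and Smad4, all fell in iGfi1, and 3 of them fell in iG+P and 3 rose in iP+A. Of the same 4, Smad5 rose in iAtoh1, Smad4 fell in iG+A and iGPA, and none passed in iPou4f3. Smad9 was the only SMAD past the threshold, with 1.82 in iP+A (adjusted p = 0.001631) and −1.68 in iGfi1 (0.00313), and adding Gfi1 lowered its Dox effect by 1.87 (0.000118).

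Of 10 other known BMP targets, 1 rose and 1 fell in iAtoh1, 1 rose and 5 fell in iGfi1, and 0 rose and 6 fell in iG+P. In iP+A 3 rose and 1 fell, in iGPA 1 rose and 2 fell, in iG+A 0 rose and 1 fell, and in iPou4f3 none passed. The count in iAtoh1 was close to the share of all genes. Atoh8, a bHLH gene on this list, rose in iAtoh1 (2.24, SE 0.24, adjusted p = 2.713e-06) and iP+A (0.96, 0.005672) and fell in iGfi1 (−1.63, 8.828e-05) and iG+P (−1.88, 6.232e-06). Atoh8 held 2045 and 2891 counts with Dox in iAtoh1 and 173 and 247 in iGfi1. Tfap2a, a transcription factor gene of surface ectoderm and neural crest, rose most in iP+A (2.55, SE 0.51, adjusted p = 0.001332). Prdm1, which is needed for primordial germ cells, fell there (−2.35, 0.009952), a call lost without No Dox replicate 2 or Dox replicate 1 (adjusted p = 0.2002 and 0.08777), and with only the groups compared, and the change was −3.42 without No Dox replicate 1.

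Of the 17 inhibitors tested, 5 rose and 6 fell in iGPA, 3 rose and 6 fell in iG+P, 1 rose and 6 fell in iGfi1, 3 rose and 2 fell in iG+A, 1 rose and 3 fell in iP+A, 2 rose and 3 fell in iAtoh1, and 1 rose and 0 fell in iPou4f3. The counts in iAtoh1 were not far from the shares of all genes there. Chrdl1, a secreted antagonist, rose in iPou4f3 (2.96, adjusted p = 0.001607) and iG+P (2.79, 0.0003125) and fell in iAtoh1 (−2.14, 0.005357). Its rise in iG+P was 2.11 without Dox replicate 1 and 3.47 without Dox replicate 2, and its fall in iAtoh1 was lost without No Dox replicate 1 or Dox replicate 1 (adjusted p = 0.05647 and 0.09596) and was −2.81 without Dox replicate 2. With only the groups compared in the fit, the changes of Chrdl1 in iAtoh1 and iPou4f3 did not pass. Nbl1, a further secreted antagonist, rose in iAtoh1 (2.51, adjusted p = 2.36e-06), from 82.1 and 78.3 counts to 523 and 408.

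Bmp3, an atypical BMP that opposes the others, rose in iG+A (4.41, SE 0.78, adjusted p = 0.00021) and iGPA (4.24, 0.0002271), from at most 2.75 counts without Dox to 42.9 and 141, and to 29.2 and 28.8. Its rise in iG+A was 5.26 without Dox replicate 1 and 3.57 without Dox replicate 2, and that in iGPA 4.91 without No Dox replicate 1 and 3.58 without No Dox replicate 2. In iGfi1 Bmp3 rose to 7.50 and 11 counts (2.21, adjusted p = 0.04391), a call lost without any 1 library (up to 0.1607) and, for Bmp3 in iGfi1, with the replicate block (adjusted p = 0.06972), with a pseudocount of 0.5 and with quantile scaling. Acvr1c, a receptor for Nodal and activins, rose in iG+A from 1.89 and 1.83 counts to 1369 and 527 (8.22, SE 0.78, adjusted p = 2.238e-07; 7.53 without Dox replicate 1 and 8.90 without Dox replicate 2) and in iGPA from 6.42 and 1.26 to 61.7 and 92.2 (4.22, 0.0002225). In iGPA the rise of Acvr1c was 5.08 without No Dox replicate 1 and 3.37 without No Dox replicate 2.

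Gdf6, a ligand of limb joints and the dorsal retina, fell in iGPA (−3.75, SE 0.44, adjusted p = 1.664e-06) and iG+A (−2.07, 0.001053), and Acvrl1, a receptor of endothelial cells, fell in iG+P (−2.49, 2.805e-06). Rgmb, a BMP co-receptor, fell in iGfi1 (−1.95, 1.632e-05). Inhbb, an activin subunit, rose in iG+P from 3.07 and 4.01 counts to 136 and 32.5 (3.91, 0.0008424; 2.89 without Dox replicate 1 and 4.93 without Dox replicate 2). Bmp8a fell in iPou4f3 (−1.61, 0.02518), a call lost without any 1 library (up to 0.2068) and with only the groups compared (0.0951). Gdf3, a ligand of the pluripotent state, fell in iP+A (−2.60, 0.04963), which was −4.08 without No Dox replicate 1, −3.43 without Dox replicate 2, and lost without No Dox replicate 2 or Dox replicate 1 (adjusted p = 0.5091 and 0.3382). The call of Gdf3 was lost, too, with a pseudocount of 0.5, no filter, 75th percentile scaling, 1 pooled control group, no trend and only the groups compared. Untreated iP+A held 37.7 and 301 counts of Gdf3 and 128 and 570 of Prdm1, with the high values in No Dox replicate 2. The same library had the highest summed level of 8 pluripotency markers in the series (25621 counts, against 9275 in No Dox replicate 1 and 6558 and 7275 with Dox), and the part of this in both results was not tested. Of these 8 markers, 6 fell in iP+A (median −2.42), 5 in iG+A, 5 in iGPA, 3 in iG+P and 0 in the other 3 lines, and none rose.

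**Figure D4:**
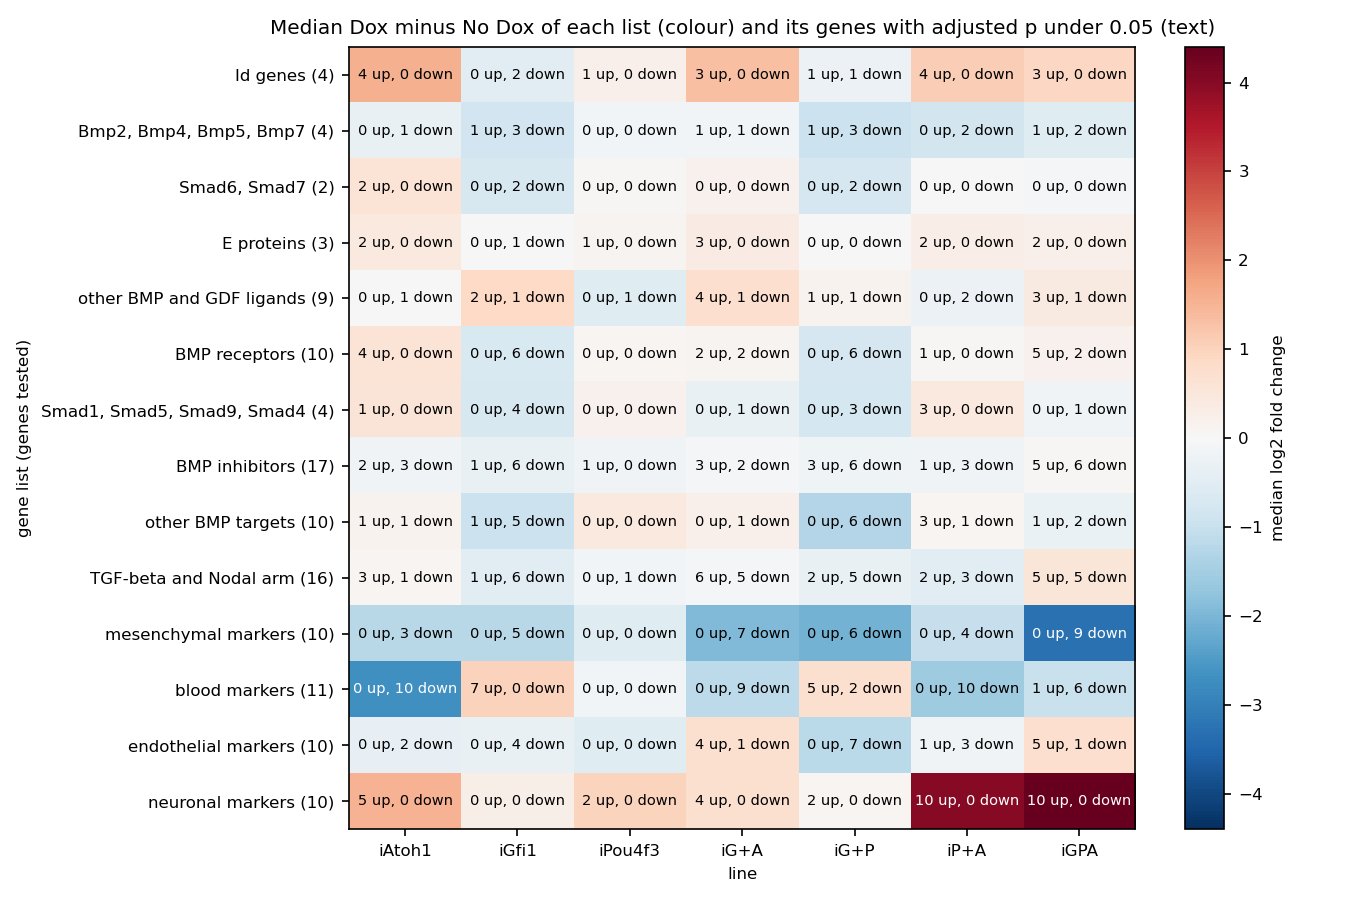
Median log2 fold change with Dox of each gene list (rows, with the genes tested in parentheses) in each line (columns) as colour, and the number of its genes that rose and fell as text. The Id genes are red in the 4 lines with Atoh1, the BMP receptors and the SMADs of the pathway are blue in iGfi1 and iG+P, and the mesenchymal markers are blue with 9 of 10 genes down in iGPA.

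Cell type markers moved with Dox as well, and their part in these results was not tested. Of 10 mesenchymal markers such as Col1a1, Pdgfra and Twist1, 9 fell in iGPA (median −3.29), 7 in iG+A (−1.93), 6 in iG+P (−2.07), 5 in iGfi1 (−1.21), 4 in iP+A (−0.997), 3 in iAtoh1 (−1.22) and 0 in iPou4f3 (−0.55). Their summed level ran from 54129 to 170930 counts in untreated libraries and from 9198 to 127260 with Dox, with none at 0 in any library. Bmp4 likewise had its largest fall in iGPA and none that passed in iPou4f3. Of 11 blood markers, 10 fell in iAtoh1, 9 in iG+A, 10 in iP+A and 6 in iGPA, the 4 lines in which Id1, Id2 and Id3 rose, while 7 rose in iGfi1 and 5 in iG+P. In iGPA 1 blood marker rose, in iG+P 2 fell, and in iPou4f3 none passed. The summed blood level was 73997 to 516350 counts in untreated libraries and 14994 to 390050 with Dox. All 10 neuronal markers rose in iP+A and iGPA, 5 rose in iAtoh1, 4 in iG+A, 2 in iPou4f3, 2 in iG+P and 0 in iGfi1, and their sum ran from 460 to 1443 counts without Dox and from 870 to 24488 with it. Bmp7 had its largest rises over the line's own untreated EBs in iG+A and iGPA, though its level with Dox was about as high in iG+P. Of 6 neural progenitor markers, 4 rose and 1 fell in iG+A (median 1.56) and 4 rose and 0 fell in iGPA (median 1.36). Of the same 6 markers, 2 rose in iAtoh1, 1 rose in iG+P, 1 rose and 2 fell in iP+A, and none passed in iGfi1 or iPou4f3. Their sum was 867 to 5357 counts without Dox and 814 to 4214 with it. Of 10 endoderm markers, 5 fell in iG+P, 4 in iGfi1, 4 in iG+A, 3 in iAtoh1, 3 in iGPA, 2 in iPou4f3 and 1 in iP+A, and 1 rose in iG+A and in iGPA, with sums of 6290 to 12412 counts without Dox and 3608 to 12774 with it. Of 6 hair cell markers, 0 fell in any line, and 5 rose in iGPA, 4 each in iG+P and iG+A, 3 in iP+A, 2 in iGfi1 and 1 each in iPou4f3 and iAtoh1, with sums of 14665 to 72446 counts without Dox and 22247 to 77058 with it. Id1, Id3 and Smad6 are known to be expressed in endothelial cells, and of 10 endothelial markers 7 fell and 0 rose in iG+P, 4 fell and 0 rose in iGfi1, 4 rose and 1 fell in iG+A, and 5 rose and 1 fell in iGPA. In iAtoh1 and iP+A, where Id1 and Id3 rose as well, 0 rose and 2 fell (median −0.34) and 1 rose and 3 fell (median −0.17), and none passed in iPou4f3. Their sums ran from 15816 to 24756 counts without Dox and from 7817 to 40087 with it.

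Untreated EBs of the 7 lines were not alike either. The F test among untreated groups passed for 3 of the 10 genes, Id1 (adjusted p = 0.03245), Id3 (0.01124) and Smad7 (0.01953), where 12.1% of all genes passed. Untreated Id1 was lowest in iG+A (1489 and 2441 counts) and highest in iAtoh1 (3443 and 3035). Untreated Id3 was likewise lowest in iG+A (1761 and 2759) and highest in iAtoh1 (4790 and 4251), and untreated Smad7 was lowest in iG+A (2837 and 3112) and highest in iP+A (6001 and 5715). With all 14 untreated libraries as 1 control group, the rises of Id1, Id2 and Id3 in the 4 lines with Atoh1 still passed.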

How the data were processed

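RNA from day 6 EBs was measured as mRNA-seq in 28 libraries. Per the labels and the methods, the authors trimmed reads with cutadapt, quantified UCSC knownGene transcripts (mm9) with Kallisto, used tximport for gene-level values and DESeq2 for normalisation, tools whose versions are not given in the sources used here. The deposited values are log2 of the normalised count + 1, so no count model was fitted, and a fold change on this scale understates the change of low genes. Gene names came from RefSeq for 19314 of 19421 IDs, and 107 stayed unnamed.

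Genes with at least 10 normalised counts in at least 2 libraries (16837) were fitted with limma 3.58.1 (R 4.3.3), with trend, over 14 groups and 28 libraries (14 residual degrees of freedom), and p-values were adjusted over all of them by Benjamini and Hochberg. Effects of adding a factor are means of 3 differences between lines, and F tests compared the 7 lines. The fit was tested on simulated data. Low values were whole multiples of 1 step, within 0.05, for 70.62 to 79.44% of values up to 20, too few to recover reads, and the depth given is therefore an estimate.

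The series text says that the replicates of a line are different clones, but not whether an equal number in both arms is the same clone. Same-numbered replicates were taken as pairs on that text and because deviations from the group means correlated between arms in every line (r = 0.24, 0.13, 0.23, 0.16, 0.10, 0.25 and 0.15 for iAtoh1, iGfi1, iPou4f3, iG+A, iG+P, iP+A and iGPA). The main fit had no replicate block, and the blocked fit, which rests on this reading, is given where it changed a call.

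The genes and lists were chosen with earlier results of these data known. Named besides the 10 genes are the E proteins, the 2 largest rises and the 2 largest falls past the threshold on the pathway lists in each line, and the 3 genes most like each Id gene. A result that this rule would name is not reported here. The further values of Smad9 and Atoh8 were chosen after they were seen. The alternatives were pseudocounts of 0.5 and 5, no filter or one of 50, quantile and 75th percentile scaling, a replicate block, only the groups compared, 1 pooled control, no trend, other fold limits and each library left out.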

Additional observations from a re-analysis of the deposited data

Results flagged for a closer look

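For each of the 10 genes, 9 pairs of lines that differ by 1 factor were compared. The Dox effect differed between lines beyond the test in 9 cases where the size of the difference was also at least 1.5 on the log2 scale (limma, adjusted over all genes). The share of all genes past the same cut was not counted. These comparisons share libraries. With groups of 2 libraries, no test for single libraries that stand apart was run.

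For Id1 the effect was higher in iG+A than in iGfi1 by 1.97 (adjusted p = 2.051e-05) and higher in iGPA than in iG+P by 1.62 (0.0001535). Id2 and Id3 were higher in iG+A than in iGfi1 by 2.00 (4.269e-05) and 1.93 (6.973e-05), and Id4 was higher in iG+P than in iGfi1 by 1.78 (0.003785).

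Bmp4 had a lower effect in iG+P than in iPou4f3 (−2.10, adjusted p = 0.001405). Bmp7 had a higher effect in iG+A than in iAtoh1 (2.03, adjusted p = 0.01808), in iGPA than in iP+A (2.30, 0.007196) and in iG+A than in iGfi1 (1.63, 0.03692).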

How the results depend on the processing

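None of the 52 effects of the 10 genes that passed turned direction under any setting. All 52 passed with both pseudocounts, both filters, quantile scaling and the replicate block, 51 with 75th percentile scaling, 47 without trend and 42 with only the groups compared, and 37 of the 41 effects in single lines passed with 1 pooled control. Under both scalings the median of all genes stayed within 0.07 of 0 in every line.

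Under a fold limit of 1 on the log2 scale, the genes past the threshold numbered 4, 3, 1, 5, 4, 3 and 5 in iAtoh1, iGfi1, iPou4f3, iG+A, iG+P, iP+A and iGPA, and with no fold minimum 7, 8, 1, 5, 8, 6 and 6. The shares of all genes past the limit of 1 were not counted, so those counts have nothing to stand against. Leaving out 1 library gave 0 to 1 in iGfi1 and iPou4f3 and 1 to 2 in iG+P and iP+A. With the replicate block, 7 genes passed for adding Gfi1, 2 for adding Pou4f3 and 9 for adding Atoh1, against 4, 1 and 6 in the main fit. It ended none of the 52 calls, and the shares of all genes that passed with it were not counted. The count for adding Pou4f3 was also 2 with 75th percentile scaling and 1 to 3 without 1 library. Of 39 calls of the E proteins and other pathway genes named by rule, 38 passed with the replicate block, 37 with 75th percentile scaling, 37 with a pseudocount of 0.5, 38 with no filter, 38 with quantile scaling, 36 without trend and 29 with only the groups compared, and 33 of 36 with 1 pooled control. The causes were not tested. With 2 libraries per group, 19 of the 41 effects in single lines were lost without at least 1 library.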
